A study of Mus musculus with 14 samples.

Results

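Glutathione peroxidases and thioredoxin reductases are the enzymes that spend glutathione, or recharge thioredoxin, to remove peroxides and to keep protein thiols reduced. The 8 genes described here were taken by symbol from an FPKM table of 23427 genes: Gpx1, Gpx3, Gpx4, Gpx7, Gpx8, Txnrd1, Txnrd2 and Txnrd3. FPKM counts the sequenced fragments of a gene relative to its exon length and to the size of the library. The rule used symbols and no measured value. Of the 8, 6 encode selenoproteins, and Gpx7 and Gpx8 carry a cysteine in place of the selenocysteine. The table held 14 mRNA libraries of mouse primary cells in 7 groups of 2. Oligodendrocyte precursor cells (OPCs), which mature into the myelin-forming oligodendrocytes (OLs), had been isolated from the cortex of pooled wild-type C57BL/6J pups by panning on a Pdgfra antibody, and were left to differentiate without growth factors and with T3. The study asked what the RNA-binding protein Sbp2l (gene symbol Secisbp2l), a relative of the selenocysteine insertion factor Secisbp2, does during OL maturation. Cells were taken at Day0 or after 3 days of differentiation (Day3). At Day3 there were 2 targeting groups, in which siRNA lowered Secisbp2l (siSbp2l) or Pdgfra (siPdgfra). A further 4 groups lacked a targeting siRNA: non-treated, mock transfection, NC siRNA #1 and NC siRNA #2. These are called the 4 Day3 controls. The methods describe the 2 libraries of a group as independent replicates of cultured OPCs, and the labels do not say whether these came from separate preparations of animals, so p-values measure the spread between cultures.

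Glutathione peroxidases reduce hydrogen peroxide and lipid hydroperoxides with electrons from glutathione, and thioredoxin reductases pass electrons from NADPH to thioredoxin, which serves the peroxiredoxins and ribonucleotide reductase. In the selenoprotein members the catalytic residue is selenocysteine, encoded by a UGA codon that is read through with the help of a SECIS element in the 3′ UTR of the mRNA and of the protein Secisbp2. Oligodendrocytes are rich in lipid and iron, and Gpx4, the member that reduces lipid hydroperoxides within membranes, is known as the guard against ferroptosis, a form of cell death driven by lipid peroxidation.

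The coding sequence around the catalytic codon shows which members depend on selenocysteine. The windows below hold up to 24 bases on each side of the codon, which is in capitals, written 5′ to 3′ on the coding strand, from GENCODE M21 transcripts (mm10). In Gpx7 and Gpx8 the codon was located by aligning the translated reading frames to those of Gpx1, Gpx3 and Gpx4, with selenocysteine scored as cysteine, and the same cysteine codon was found with all 3.
Gpx1: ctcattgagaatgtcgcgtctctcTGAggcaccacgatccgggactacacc
Gpx3: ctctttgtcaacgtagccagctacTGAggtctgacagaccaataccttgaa
Gpx4: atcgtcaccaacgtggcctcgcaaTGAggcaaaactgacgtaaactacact
Gpx7: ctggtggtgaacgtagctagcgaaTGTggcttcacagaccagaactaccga
Gpx8: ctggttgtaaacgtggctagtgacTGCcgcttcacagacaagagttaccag
Txnrd1: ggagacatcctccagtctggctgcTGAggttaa
Txnrd2: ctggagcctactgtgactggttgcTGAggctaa
Txnrd3: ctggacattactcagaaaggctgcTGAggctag
The codon lies in the body of the glutathione peroxidases, at chr9:108339451-108339453 in exon 1 of 2 of Gpx1 (plus strand), at chr11:54907256-54907258 in exon 2 of 5 of Gpx3 (plus strand) and at chr10:80054737-80054739 in exon 3 of 7 of Gpx4 (plus strand). The cysteine codons lie at chr4:108403430-108403432 in exon 2 of 3 of Gpx7 and at chr13:113045661-113045663 in exon 2 of 3 of Gpx8, both on the minus strand. In the thioredoxin reductases it is the codon before the last residue, with 1 residue left before the stop codon: chr10:82896037-82896039 in Txnrd1, chr16:18477772-18477774 in Txnrd2 and chr6:89674789-89674791 in Txnrd3, all on the plus strand. The window of Gpx3 spans the junction of exons 2 and 3, and the other windows lie within 1 exon each. The libraries measured mRNA and not readthrough of the codon.

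Estimated depths lay between 6561097 and 31623187 fragments, and NC siRNA #2 replicate 2 was the shallowest library. The non-treated pair differed most between its libraries, with 252 genes apart by over 2-fold, where the other pairs had 7 to 21. Secisbp2l fell to 3.91 and 3.82 FPKM in the siSbp2l libraries, against 134.7 to 255 FPKM in the 8 control libraries, and Pdgfra fell to 3.30 and 2.69 FPKM in the siPdgfra libraries, against 32.4 to 72.1 FPKM. The summed level of 6 OL markers (Mbp, Cnp, Mag, Mog, Mobp and Cldn11) was 537 to 597 FPKM at Day0, 4031 to 5816 FPKM in the 4 controls, 2155 to 2251 FPKM in siSbp2l and 2826 to 3055 FPKM in siPdgfra. All 5 endothelial and all 7 fibroblast or pericyte markers stayed under 1 FPKM in every library, as did 5 of 6 microglia markers, the exception being P2ry12. Summed OPC markers were 2088 to 2399 FPKM at Day0 and 923 to 1367 FPKM at Day3. Gpr17 and Sox10, both of this list, ran the other way. Gpr17 had group means of 52.47 FPKM at Day0 and 93.64 to 210.8 FPKM at Day3, and Sox10 of 150.9 and 225.9 to 294.7 FPKM. The summed neuron markers ranged from 27.6 to 276.5 FPKM, were lowest at Day0, and stood at 200.4 to 201.5 FPKM in siSbp2l and 236 to 240.3 FPKM in siPdgfra. Most of this sum was Tubb3, with group means of 23.67 FPKM at Day0 and 66.13 to 270 FPKM at Day3. Rbfox3 and Gad1 were also lowest at Day0. Snap25 was instead highest there (mean 2.04 FPKM), and Syt1 was higher at Day0 (mean 2.56 FPKM) than in the 4 controls. The summed astrocyte markers were 41.5 to 45.8 FPKM at Day0, 82.8 to 145 FPKM in the 4 controls, 101 to 108 FPKM in siSbp2l and 37.7 to 38.1 FPKM in siPdgfra, with Aqp4 and Gja1 under 1 FPKM throughout. Members were measured in whole cultures, so that a change in the mix of cells and a change of RNA within a cell cannot be told apart, and the part of these marker differences in the results below was not tested.

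Of the 8 members, 3 made up nearly all of the family signal. Gpx4 was the most abundant over the 14 libraries, at 77.5 to 299 FPKM (median 210.2 FPKM), although it was the lowest of these 3 at Day0. Txnrd1 was measured at 54.1 to 218 FPKM (median 69.9 FPKM) and Gpx1 at 50.7 to 178 FPKM (median 75.2 FPKM). On this per-length scale Gpx4 ranked 245th, Txnrd1 714th and Gpx1 722nd of all genes by mean level. Txnrd2, the mitochondrial thioredoxin reductase, was measured at 1.94 to 5.33 FPKM, and Txnrd3, the thioredoxin-glutathione reductase best known from testis, at 0.92 to 3.81 FPKM. Gpx3, the secreted plasma enzyme, did not exceed 0.20 FPKM in any library, and Gpx8, a membrane protein of the endoplasmic reticulum, did not exceed 0.49 FPKM. Gpx7, the related soluble enzyme of the reticulum, was listed at 0 in all 14 libraries. The members that reached 1 FPKM in at least 2 libraries, and could therefore be tested, were 5 of 8 (Gpx1, Gpx4, Txnrd1, Txnrd2 and Txnrd3). All 5 are selenoproteins, and both cysteine members and the selenoprotein Gpx3 were under the limit. Of the remaining glutathione peroxidase genes, Gpx2 did not exceed 0.44 FPKM and Gpx5 and Gpx6 were listed at 0 throughout.

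**Figure D1:**
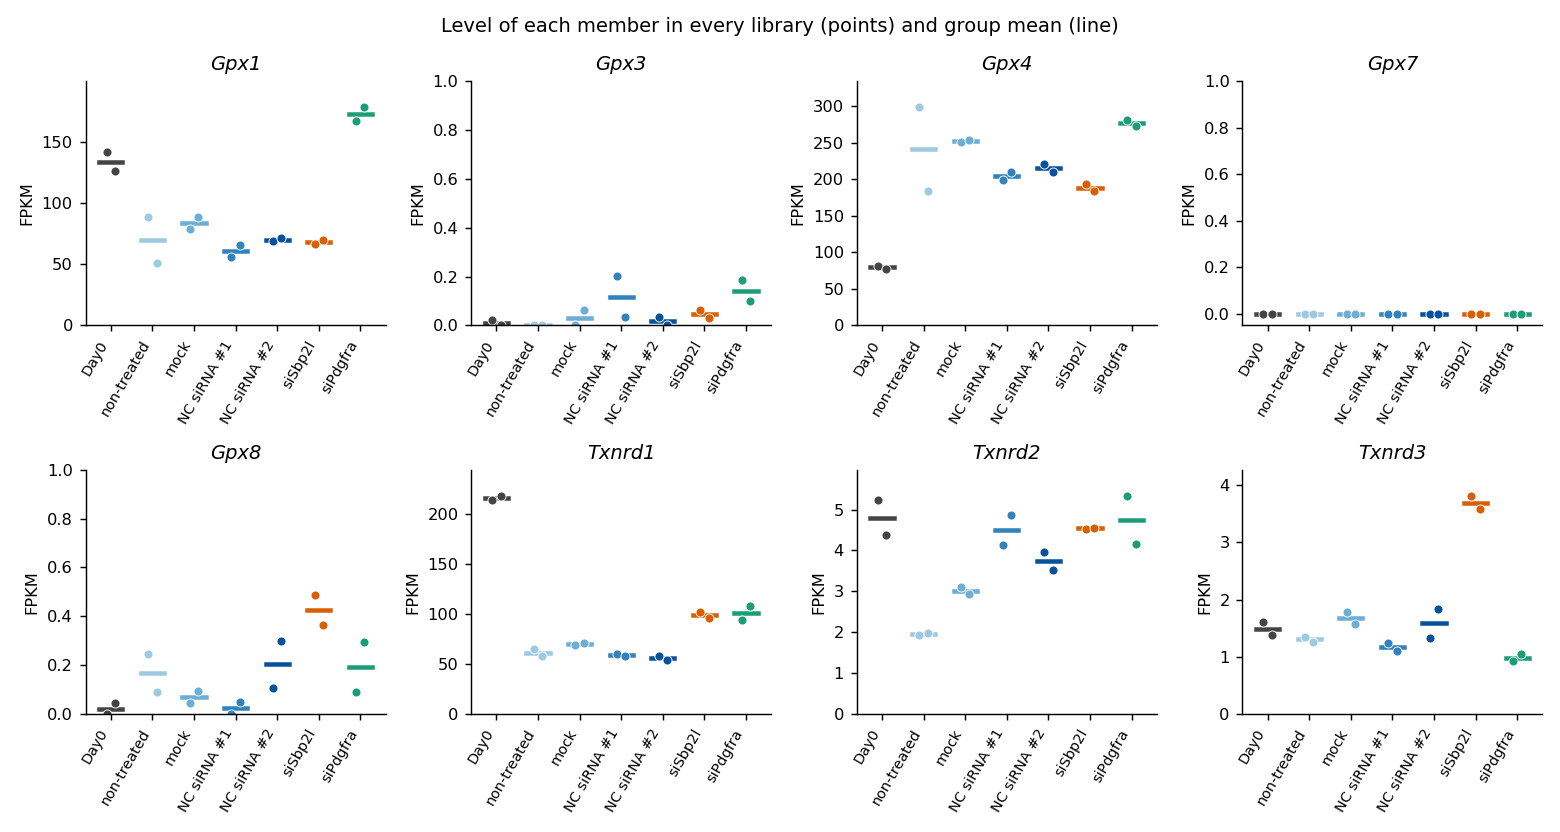
Level in FPKM (vertical axes, starting at 0 except for Gpx7, whose axis starts just below) of the 8 members in the 7 groups (horizontal axes), with points for libraries and lines for group means. Gpx4 is lowest and Txnrd1 highest at Day0, Gpx1 is highest in siPdgfra, Txnrd3 is highest in siSbp2l, and Gpx3, Gpx7 and Gpx8 stay under 1 FPKM.

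Differentiation in culture was followed by opposite changes within the family: Gpx4 mRNA rose while Txnrd1, Txnrd2 and Gpx1 mRNA fell. Values below are FPKM per library, with the difference on the log2(FPKM + 1) scale, its standard error (SE) and a p-value adjusted over all genes tested. Gpx4 was measured at 81.4 and 77.5 FPKM at Day0, at 299 and 184 FPKM in non-treated cells and at 251 and 254 FPKM in mock cells. Every Day3 library thus lay above both Day0 libraries. The difference from Day0 was 1.55 ± 0.17 (SE, adjusted p = 1.05e-05) for non-treated cells and 1.66 ± 0.17 (SE, adjusted p = 6.16e-06) for mock cells, or 2.93-fold and 3.15-fold. The 2 non-treated libraries were far apart from each other in this gene. Without non-treated replicate 1 or 2 the difference was 1.21 or 1.90, and the call stood in either case.

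Gpx1, the general cytosolic and mitochondrial peroxidase, moved the other way. It was measured at 141 and 126 FPKM at Day0, at 88.5 and 50.7 FPKM in non-treated cells and at 79.2 and 88.4 FPKM in mock cells. The Day0 libraries were the highest of these 6, while the non-treated and mock libraries overlapped. Gpx1 was lower than at Day0 by 0.99 ± 0.20 on the log2 scale in non-treated cells (SE, adjusted p = 0.0011) and by 0.67 ± 0.20 in mock cells (SE, adjusted p = 0.011). The call in mock cells was lost when Day0 replicate 1 (adjusted p = 0.069) or mock replicate 1 (adjusted p = 0.072) was left out.

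Txnrd1, the cytosolic thioredoxin reductase, showed the largest fall of the members against Day0 in both comparisons. It was measured at 214 and 218 FPKM at Day0, at 64.7 and 58.4 FPKM in non-treated cells and at 69.0 and 70.9 FPKM in mock cells. The fall was 3.47-fold in non-treated cells (log2 difference -1.80 ± 0.10 SE, adjusted p = 2.11e-08) and 3.06-fold in mock cells (log2 difference -1.61 ± 0.10 SE, adjusted p = 5.18e-08). Txnrd2 was measured at 5.22 and 4.37 FPKM at Day0, at 1.94 and 1.99 FPKM in non-treated cells and at 3.10 and 2.93 FPKM in mock cells. It fell by 0.96 ± 0.12 on the log2 scale in non-treated cells (SE, adjusted p = 3.57e-05) and by 0.53 ± 0.12 in mock cells (SE, adjusted p = 0.0030). Txnrd3 stood at 1.61 and 1.38 FPKM at Day0 and between 1.25 and 1.78 FPKM in the 4 libraries of non-treated and mock cells. Its difference was -0.11 ± 0.11 (SE, adjusted p = 0.38) in non-treated and 0.10 ± 0.11 (SE, adjusted p = 0.42) in mock cells, with 95% intervals of -0.35 to 0.13 and -0.14 to 0.34.

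In counts, 1 of the 5 tested members was higher and 3 were lower at Day3 in non-treated cells, where 28.4% of all 11874 genes tested were called higher and 38.6% lower. The same counts, 1 higher and 3 lower, held in mock cells, against 29.7% and 36.6% of all genes. These backgrounds are large, and 4 of 5 members called is read against them. The median log2 difference of the 5 members was -0.96 in non-treated and -0.53 in mock cells, and that of all genes was -0.12 and -0.07. Upper-quartile scaling moved the median of all genes in non-treated cells by 0.12 to 0.00. Both comparisons share the Day0 libraries.

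**Figure D2:**
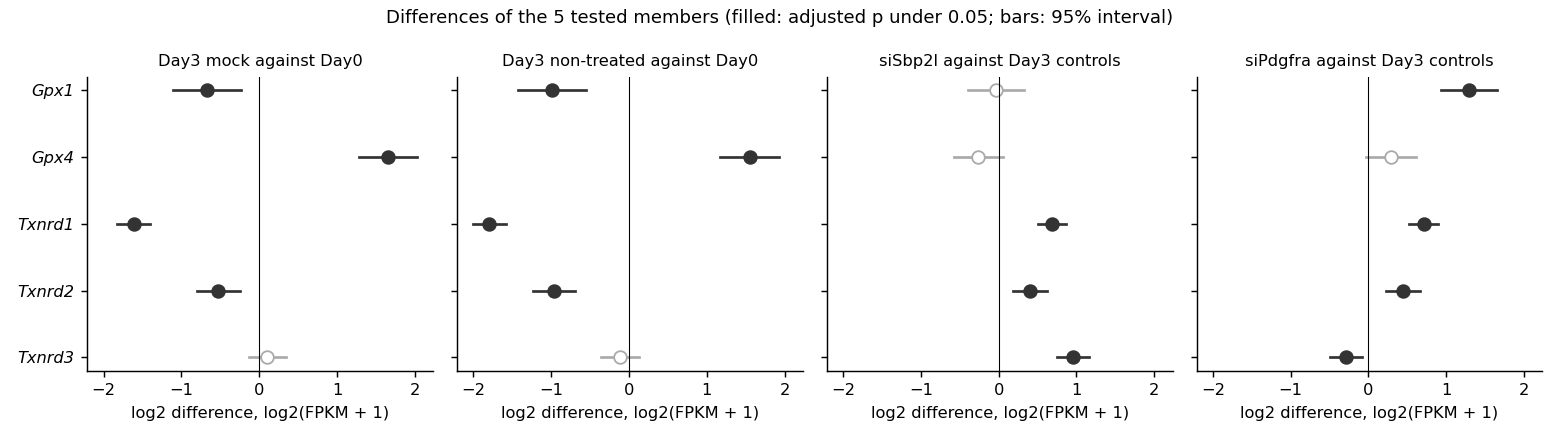
Differences on the log2(FPKM + 1) scale (horizontal axes) of the 5 tested members (vertical axis) in 4 comparisons (panels), with points for fitted differences, bars for 95% intervals and filled points where the adjusted p is under 0.05. Gpx4 lies right of 0 and Txnrd1 left of 0 in both Day0 comparisons, and Txnrd1 and Txnrd2 lie right of 0 with either siRNA, while Gpx1 and Txnrd3 differ between the siRNAs.

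The balance between the 2 abundant peroxidases changed with differentiation and with siPdgfra. Gpx4 made up 37.3% ± 1.0 (SD, n = 2) of the summed glutathione peroxidase FPKM at Day0, and Gpx1 made up 62.7% ± 1.0 (SD, n = 2). In the 4 Day3 controls the group means for Gpx4 lay between 75.1% (mock) and 77.7% (non-treated), with SDs of 0.92 to 1.3 percentage points. The share was 73.3% ± 1.3 (SD, n = 2) in siSbp2l and 61.6% ± 1.6 (SD, n = 2) in siPdgfra. The ratio of Gpx4 to Gpx1 was 0.59 ± 0.026 at Day0, 3.02 to 3.51 in the control groups, 2.77 ± 0.19 in siSbp2l and 1.61 ± 0.11 in siPdgfra (SD, n = 2 each). The ratio is formed within a library and does not depend on how libraries are scaled. It was also close in the 2 non-treated libraries (SD 0.18 around 3.51), whose Gpx4 and Gpx1 levels were both higher in replicate 1. The summed glutathione peroxidase FPKM was 213 ± 13 at Day0, 266 to 337 in the control groups, 257 ± 4.3 in siSbp2l and 450.0 ± 1.8 in siPdgfra (SD, n = 2 each). The summed thioredoxin reductase FPKM was 222 ± 2.4 at Day0, 61.2 to 74.6 in the control groups, 108 ± 4.5 in siSbp2l and 107 ± 9.7 in siPdgfra (SD, n = 2 each). Txnrd1 supplied 91.2% to 97.2% of that sum in every group. These shares and ratios were not tested.

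**Figure D3:**
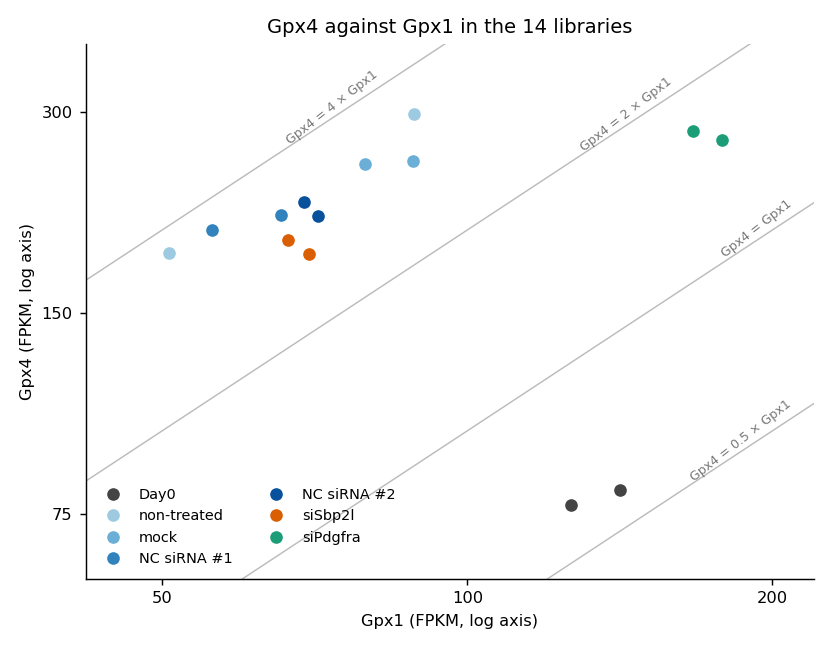
Gpx4 against Gpx1, both in FPKM on log axes, in the 14 libraries, coloured by group, with grey lines of constant ratio. The Day0 libraries lie just above the line at a ratio of 0.5, the 8 control and 2 siSbp2l libraries lie between ratios of 2 and 4, and the siPdgfra libraries lie between 1 and 2.

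Knockdown of Secisbp2l was accompanied by more Txnrd3 and Txnrd1 mRNA than in any control library. Txnrd2 passed the test against the mean of the 4 controls but lay inside their range, and neither tested glutathione peroxidase passed. Txnrd3 was measured at 3.81 and 3.58 FPKM in the siSbp2l libraries. The 8 control libraries lay between 1.11 and 1.83 FPKM, so that both knockdown libraries stood above all of them. These levels rest on 219 and 220 estimated fragments in siSbp2l and 34.1 to 105 in the controls. The log2 difference from the mean of the 4 controls was 0.95 ± 0.09 (SE, adjusted p = 1.60e-05), or 1.94-fold on the log2(FPKM + 1) scale, and the ratio of the mean FPKM values was 2.57. In this gene the siSbp2l libraries were also the highest of all 14.

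Txnrd1 was measured at 102 and 96.2 FPKM in siSbp2l, against 54.1 to 70.9 FPKM in the 8 control libraries, with no overlap. It rose by 0.69 ± 0.08 on the log2 scale (SE, adjusted p = 7.05e-05), or 1.61-fold, and stayed well under its level at Day0. Txnrd2 was measured at 4.53 and 4.55 FPKM in siSbp2l, inside the range of the controls (1.94 to 4.88 FPKM). Its log2 difference was 0.40 ± 0.10 (SE, adjusted p = 0.0061). That call rested on the non-treated and mock groups: against non-treated cells alone the difference was 0.90, against mock cells 0.46, against NC siRNA #2 0.23 (adjusted p = 0.17) and against NC siRNA #1 0.01 (adjusted p = 0.94). It was also lost without siSbp2l replicate 1 (adjusted p = 0.056) or replicate 2 (adjusted p = 0.055).

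Gpx4 was measured at 193 and 184 FPKM in siSbp2l and at 184 to 299 FPKM in the controls. Of the 8 control libraries, 1, non-treated replicate 2 at 184.4 FPKM, lay under the higher siSbp2l library. The log2 difference was -0.26 ± 0.14 (SE, adjusted p = 0.15), with a 95% interval of -0.58 to 0.06. This value turned on the non-treated libraries and on the scaling. It was -0.17 (adjusted p = 0.0074) without non-treated replicate 1 and -0.35 (adjusted p = 8.73e-05) without replicate 2, and -0.24 (adjusted p = 0.0011) with both left out. Gpx1 was measured at 66.5 and 69.8 FPKM, inside the control range of 50.7 to 88.5 FPKM, and its log2 difference was -0.04 ± 0.16 (SE, adjusted p = 0.87; 95% interval -0.40 to 0.33).

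Of the 5 tested members, 3 were called higher and 0 lower by limma (3 had an unadjusted p under 0.05), where 35.5% of all 11650 genes tested were called higher and 17.9% lower. The median log2 difference was 0.40 for the members and 0.15 for all genes. Scaling each library by median ratios moved the median of all genes by -0.15 to 0.00, and the share of called genes that were higher from 66.4% to 47.8%. On that scale Txnrd3 was higher by 0.83 (adjusted p = 3.43e-05) and Txnrd1 by 0.52, Txnrd2 by 0.27 (adjusted p = 0.051), and Gpx4 was lower by 0.43 (adjusted p = 0.014). The siSbp2l libraries also had the lowest summed OL markers of the Day3 groups and the highest Pdgfra of them (149.9 and 144 FPKM). Their summed OPC markers, 1139 to 1172 FPKM, lay inside the range of the controls (923 to 1367 FPKM). Of the other OPC markers, Gpr17 was lower than in every control library, and the rest overlapped the control range.

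Knockdown of Pdgfra was accompanied by more Gpx1 mRNA, the largest change of a tested member from the 4 controls on the log2(FPKM + 1) scale in either knockdown. Gpx1 was measured at 167 and 178 FPKM in siPdgfra, above all 8 control libraries (50.7 to 88.5 FPKM) and above both Day0 libraries. It rose by 1.29 ± 0.16 on the log2 scale (SE, adjusted p = 1.16e-04), or 2.45-fold. Gpx4 was measured at 281 and 273 FPKM, and 1 control library, non-treated replicate 1, lay above it. The log2 difference of Gpx4 was 0.29 ± 0.14 (SE, adjusted p = 0.11), with a 95% interval of -0.03 to 0.61. Without non-treated replicate 1 it was 0.38 (adjusted p = 3.83e-05), without replicate 2 it was 0.20 (adjusted p = 0.0031), and with both left out 0.31 (adjusted p = 2.01e-04).

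The thioredoxin reductases split in siPdgfra. Txnrd1 was measured at 93.6 and 108 FPKM, above all 8 control libraries, and rose by 0.71 ± 0.08 on the log2 scale (SE, adjusted p = 5.44e-05), or 1.63-fold. Txnrd2 was measured at 5.33 and 4.15 FPKM against 1.94 to 4.88 FPKM in the controls, an overlap, and its log2 difference was 0.45 ± 0.10 (SE, adjusted p = 0.0034). Against NC siRNA #1 alone the Txnrd2 difference was 0.06 (adjusted p = 0.73) and against NC siRNA #2 alone 0.27 (adjusted p = 0.099), and without siPdgfra replicate 1 it was 0.30 (adjusted p = 0.074). Txnrd3 was measured at 0.92 and 1.04 FPKM, the lowest 2 values of the 14 libraries. It fell by 0.29 ± 0.09 on the log2 scale (SE, adjusted p = 0.020), close to the limit of 1 FPKM and with 56 and 59 estimated fragments. That call was lost against NC siRNA #1 alone (-0.13, adjusted p = 0.36), against non-treated cells alone (-0.22, adjusted p = 0.14) and without siPdgfra replicate 1 (adjusted p = 0.15) or replicate 2 (adjusted p = 0.068).

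Of the 5 tested members, 3 were called higher and 1 lower in siPdgfra, against 32.4% and 23.0% of all 11650 genes. The median log2 difference was 0.45 for the members and 0.09 for all genes. The summed astrocyte markers in siPdgfra lay under those of every control library, as did the summed OL markers, and their part in these results was not tested. Of the OL markers, Cnp, Mag and Cldn11 were each under the control range in siPdgfra, while Mbp, Mog and Mobp lay inside it. The siSbp2l and siPdgfra comparisons share the same 8 control libraries, and their values are set side by side here without being compared through them.

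Direct comparison of the knockdowns separated 3 members and left 2 together. Gpx1 was lower in siSbp2l than in siPdgfra by 1.33 ± 0.21 on the log2 scale (SE, adjusted p = 4.37e-04), a 2.51-fold difference. Gpx4 was lower in siSbp2l by 0.55 ± 0.18 (SE, adjusted p = 0.026), with the libraries of the groups not overlapping. The Gpx4 call was lost when any of the 4 libraries compared was left out (adjusted p between 0.080 and 0.12), although the difference stayed between -0.59 and -0.52. Txnrd3 was higher in siSbp2l by 1.24 ± 0.11 (SE, adjusted p = 1.30e-05), and the ratio of mean FPKM was 3.76. Txnrd1 differed by -0.02 ± 0.10 (SE, adjusted p = 0.88) and Txnrd2 by -0.04 ± 0.12 (SE, adjusted p = 0.79). The 95% intervals were -0.25 to 0.21 for Txnrd1 and -0.32 to 0.23 for Txnrd2. The members called were 1 higher and 2 lower in siSbp2l, where 28.5% of all genes were higher and 23.4% lower.

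The control groups were compared to see how much members vary without a targeting siRNA. Between NC siRNA #1 and NC siRNA #2, limma called 0 of the 5 tested members (0 at an unadjusted p under 0.05), where 21.0% of all 11650 genes were called. The widest of these differences was that of Txnrd3, at 1.23 and 1.11 FPKM against 1.34 and 1.83 FPKM (log2 difference -0.24 ± 0.11 SE, adjusted p = 0.17). Secisbp2l itself stood at 255 and 244 FPKM with NC siRNA #1 and at 134.7 and 140.4 FPKM with NC siRNA #2 (log2 difference 0.86 ± 0.14 SE, adjusted p = 0.0019). With both NC siRNAs set against non-treated and mock cells, 1 of the 5 members was called, where 28.1% of all genes were. That member was Txnrd2, at 3.52 to 4.88 FPKM in the 4 NC siRNA libraries and 1.94 to 3.10 FPKM in the 4 others, with no overlap. Its log2 difference was 0.56 ± 0.09 (SE, adjusted p = 0.0011). Txnrd1 was lower with the NC siRNAs by 0.19 ± 0.07 on the log2 scale (SE, adjusted p = 0.074). Scaling by upper quartiles moved the share of called genes that were higher in this comparison from 57.9% to 45.1%, and Txnrd1 was then called lower (-0.25, adjusted p = 0.026).

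Ordered by group mean on the log2(FPKM + 1) scale, each tested member had at most 2 steps between neighbouring groups that passed the test, of 6 steps. Gpx1 ran from siPdgfra (173 ± 8.0 FPKM, SD, n = 2) and Day0 (134 ± 10 FPKM) through mock, NC siRNA #2, siSbp2l and non-treated to NC siRNA #1 (60.8 ± 6.8 FPKM). The only step that passed was that from Day0 to mock (adjusted p = 0.011), and siPdgfra and Day0 did not differ beyond their spread (log2 difference 0.37 ± 0.20 SE, adjusted p = 0.12). Gpx4 ran from siPdgfra (277 ± 6.2 FPKM) through mock, non-treated, NC siRNA #2, NC siRNA #1 and siSbp2l (189 ± 6.5 FPKM) to Day0 (79.5 ± 2.8 FPKM), and the last step was the only one to pass (2.36-fold, adjusted p = 7.32e-05). Txnrd1 had 2 such steps. It dropped from Day0 (216 ± 3.2 FPKM) to siPdgfra (101 ± 10 FPKM; adjusted p = 1.38e-06), lay level in siPdgfra and siSbp2l (99.3 ± 4.3 FPKM; adjusted p = 0.87), and dropped again to mock (69.9 ± 1.4 FPKM; adjusted p = 0.0016), with non-treated, NC siRNA #1 and NC siRNA #2 following. Txnrd3 had 1, from siSbp2l (3.69 ± 0.17 FPKM) to mock (1.68 ± 0.14 FPKM; adjusted p = 1.35e-04).

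Txnrd2 had no step that passed, of 6, although its ends differed. It ran from Day0 (4.80 ± 0.61 FPKM) through siPdgfra, siSbp2l, NC siRNA #1 (4.51 ± 0.53 FPKM), NC siRNA #2 and mock (3.02 ± 0.12 FPKM) to non-treated cells (1.96 ± 0.038 FPKM, SD, n = 2). The 4 groups given an siRNA thus lay above the 2 Day3 groups given none. NC siRNA #1 at Day3 differed from Day0 by 0.07 ± 0.12 on the log2 scale (SE, adjusted p = 0.62), and from non-treated cells by 0.89 ± 0.12 (SE, adjusted p = 3.51e-04).

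The members under the limit were traced by estimated fragments. Gpx8 had 10 and 8 fragments in the siSbp2l libraries (0.49 and 0.36 FPKM), 0 to 5 in each of the 8 control libraries (0 to 0.30 FPKM), 2 and 6 in siPdgfra (0.09 and 0.30 FPKM) and 0 and 1 at Day0. The siSbp2l libraries were thus the highest for Gpx8, at a few fragments each. In a fit without the limit on low values the log2 difference of Gpx8 from the controls was 0.35 ± 0.08 (SE, adjusted p = 0.010), and siSbp2l against siPdgfra did not pass (0.26 ± 0.11 SE, adjusted p = 0.090). Gpx8 overlaps Cdc20b on the opposite strand. The library kit keeps strand, but whether the counting used it is not stated, so reads of the overlapping part cannot be assigned with certainty. Gpx3 had 23 fragments over all 14 libraries and was at 0 in 5 of them, with its highest value, 0.20 FPKM, in NC siRNA #1 replicate 1. For Gpx7, which had 0 fragments throughout, 3 fragments would have been 0.078 FPKM in the deepest and 0.38 FPKM in the shallowest library, so that a level under these values was not detectable. Such bounds cover counting error only, since PCR copies are not independent molecules. Gpx7, which helps oxidative folding in the reticulum, and Gpx8 were therefore not measured well enough to compare cysteine with selenocysteine members.

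Genes that feed or use these enzymes moved in both directions. For lists, the counts are of genes with an adjusted p under 0.05 among those tested, set beside the median of all genes (0.15 in siSbp2l, 0.09 in siPdgfra and -0.12 in Day3 non-treated cells against Day0). Of all genes tested, 35.5% were higher and 17.9% lower in siSbp2l, 32.4% and 23.0% in siPdgfra, and 28.4% and 38.6% at Day3 against Day0. Many of the list counts lie near these shares, and nothing is called particular to a list. Glutathione supply (12 of 12 genes tested) had 6 genes higher and 2 lower in siSbp2l (median log2 difference 0.31), 5 higher and 2 lower in siPdgfra (median 0.25), and 3 higher and 7 lower at Day3 against Day0 (median -0.63). Gsr, the glutathione reductase that recharges what the peroxidases spend, rose with either siRNA, by 0.85 ± 0.08 in siSbp2l (SE, adjusted p = 1.87e-05) and by 0.53 ± 0.08 in siPdgfra (SE, adjusted p = 4.27e-04), and fell by 0.69 ± 0.10 at Day3 against Day0 (SE, adjusted p = 8.35e-05). The largest called change of this list was a fall in each knockdown. Ggct was lower by 1.10 ± 0.13 in siSbp2l (SE, adjusted p = 8.13e-05). In siPdgfra, Oplah was lower by 0.87 ± 0.12 (SE, adjusted p = 1.84e-04) and Gclm by 0.53 ± 0.08 (SE, adjusted p = 3.05e-04). Gclc, the catalytic subunit of the first enzyme of glutathione synthesis, fell by 0.93 ± 0.10 at Day3 against Day0 (SE, adjusted p = 7.71e-06). Thioredoxin partners (14 of 14 tested) had 4 higher and 2 lower in siSbp2l (median 0.02), 3 higher and 3 lower in siPdgfra (median 0.03), and 2 higher and 10 lower at Day3 against Day0 (median -0.74). Rrm2, the ribonucleotide reductase subunit of dividing cells, fell by 4.22 ± 0.14 at Day3 against Day0 (SE, adjusted p = 6.11e-10), and Txn1, the substrate of Txnrd1, rose by 0.74 ± 0.19 in siSbp2l (SE, adjusted p = 0.0082). Larger called changes of this list in siSbp2l were those of Rrm2 and Txnip. Rrm2 was lower by 1.02 ± 0.11 (SE, adjusted p = 5.53e-05) and Txnip higher by 0.97 ± 0.08 (SE, adjusted p = 7.94e-06). For Rrm2 the siSbp2l libraries (1.13 and 2.01 FPKM) overlapped the controls (1.49 to 8.42 FPKM). Txnip was low, with means of 1.67 FPKM in siSbp2l and 0.37 FPKM in the controls. Reticulum oxidative folding (9 of 9 tested), the setting of Gpx7 and Gpx8, had 2 higher and 1 lower in siSbp2l (median 0.01), 3 and 3 in siPdgfra (median -0.04), and 1 and 4 at Day3 against Day0 (median -0.26). Prdx4, the peroxiredoxin of the reticulum, was higher in siSbp2l by 0.71 ± 0.10 (SE, adjusted p = 2.29e-04).

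**Figure D4:**
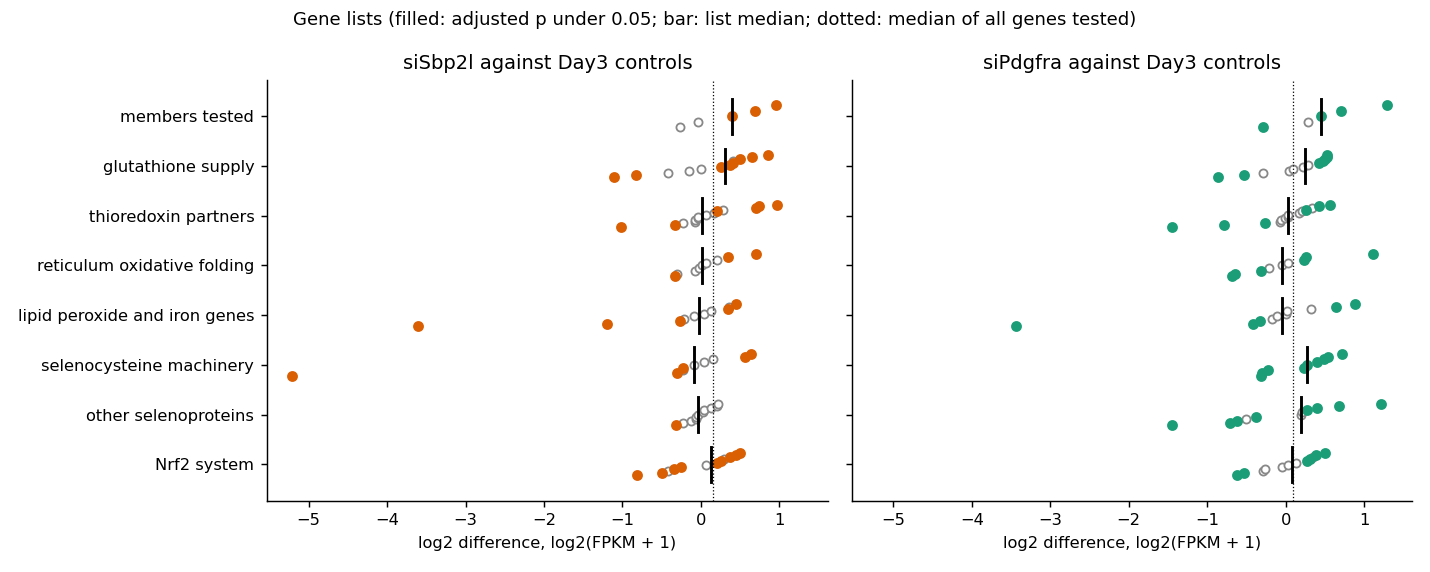
Log2 differences from the mean of the 4 Day3 controls on the log2(FPKM + 1) scale (horizontal axes) of the 5 tested members and of the tested genes of 7 lists (vertical axis), in siSbp2l (left) and siPdgfra (right), with filled points where the adjusted p is under 0.05, black bars at list medians and dotted lines at the median of all genes tested (0.15 and 0.09). In siSbp2l the points far to the left are Secisbp2l itself, at -5.21, and Alox5, at -3.61, and 1 of 11 other selenoproteins is filled.

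Lipid peroxide and iron genes (10 of 13 tested), which bear on the substrate of Gpx4, had 2 higher and 3 lower in siSbp2l (median -0.03), 2 and 3 in siPdgfra (median -0.05), and 5 and 2 at Day3 against Day0 (median 0.38). Alox5, a lipoxygenase, was the most changed of them: it rose from a mean of 0.065 to 21.2 FPKM between Day0 and Day3 non-treated cells and stood at 0.48 FPKM in siSbp2l and 0.69 FPKM in siPdgfra, against 17.8 FPKM in the controls. Tfrc, the transferrin receptor that brings in iron, was lower in siSbp2l (log2 difference -1.20 ± 0.15 SE, adjusted p = 1.41e-04) and higher in siPdgfra (0.89 ± 0.15 SE, adjusted p = 9.20e-04). The selenocysteine machinery (9 of 9 tested) had 2 higher and 3 lower in siSbp2l (median -0.08), the latter including the targeted Secisbp2l, 6 and 3 in siPdgfra (median 0.28), and 3 and 5 at Day3 against Day0 (median -0.52). Secisbp2, the factor that the selenoprotein members need, was measured at 20.9 and 19.5 FPKM in siSbp2l and at 12.04 to 14.4 FPKM in the 8 control libraries, a rise of 0.56 ± 0.08 (SE, adjusted p = 1.82e-04). Eefsec, the elongation factor for selenocysteine, rose by 0.64 ± 0.10 in siSbp2l (SE, adjusted p = 4.68e-04). Both genes were also called higher in siPdgfra, Secisbp2 by 0.23 ± 0.08 (SE, adjusted p = 0.025) and Eefsec by 0.49 ± 0.10 (SE, adjusted p = 0.0023). The other selenoproteins (11 of 18 tested) had 0 higher and 1 lower in siSbp2l (median -0.03), which was Sep15 (Selenof) at -0.32 ± 0.08 (SE, adjusted p = 0.0063). They had 4 higher and 4 lower in siPdgfra (median 0.19), and 7 and 2 at Day3 against Day0 (median 0.56).

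Txnrd1 is a textbook target of the transcription factor Nrf2, which binds antioxidant response elements. The core of this element was searched as TGACNNNGC, on both strands, in RefSeq promoter windows (GRCm38.p6) of 300 bases, from 250 before to 50 after each start. Of 13 windows of the 8 members, 1 held it, and it belonged to Txnrd1. Of all 32851 windows, 12.4% held it. The stretch around the match, at chr10:82859088-82859148 on the strand of the gene, is shown with the match in capitals. The match reads on the opposite strand and lies 92 to 84 bases before the start.
Txnrd1 promoter: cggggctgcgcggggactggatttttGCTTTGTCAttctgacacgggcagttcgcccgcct
A match of letters is a description and not a measured site. Genes of the Nrf2 system (12 of 14 tested) had 5 higher and 4 lower in siSbp2l (median 0.13), 4 higher and 2 lower in siPdgfra (median 0.08), and 3 higher and 7 lower at Day3 against Day0 (median -0.54). Gclc was higher in both knockdowns, by 0.50 ± 0.08 in siSbp2l (SE, adjusted p = 7.38e-04) and by 0.50 ± 0.08 in siPdgfra (SE, adjusted p = 6.89e-04). Gclm, also of this list, was lower in siPdgfra by 0.53 ± 0.08 (SE, adjusted p = 3.05e-04). Hmox1, which degrades haem, was lower in siSbp2l (-0.81 ± 0.13 SE, adjusted p = 5.01e-04), and Taldo1, of the pentose phosphate pathway, was lower in both (-0.49 ± 0.12 SE, adjusted p = 0.0076 in siSbp2l; -0.62 ± 0.12 SE, adjusted p = 0.0020 in siPdgfra).

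The genes whose group means ran most like those of a member were taken from genes with at least 10 FPKM in at least 2 libraries and a standard deviation of the 7 group means of at least 0.3 on the log2(FPKM + 1) scale. Txnrd2 and Txnrd3 never reached 10 FPKM and were left out. Over the 7 group means, the nearest to Gpx4 were Hagh (Pearson r = 0.99), which encodes a glyoxalase that releases glutathione, Kazn (r = 0.99) and Aamdc (r = 0.99). Hagh ran from 14.6 FPKM at Day0 to 28.7 to 33.4 FPKM in the control groups, 25.4 FPKM in siSbp2l and 35.1 FPKM in siPdgfra. The nearest to Gpx1 were Ifnar2 (r = 0.99), Cbr1 (r = 0.98), a carbonyl reductase, and Psmd8 (r = 0.98), a proteasome subunit. Those nearest to Txnrd1 were Tacc2 (r = 1.00), Rpl21 (r = 1.00) and Nono (r = 0.99), and Tacc2 stood at 53.9 FPKM at Day0, 4.54 to 7.16 FPKM in the control groups, 16.03 FPKM in siSbp2l and 16.2 FPKM in siPdgfra. With 7 points drawn from shared libraries and many genes searched, values near 1 are found readily, and these likenesses are given as descriptions.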

How the data were processed

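Primary mouse OPC cultures were profiled by stranded mRNA sequencing in 14 libraries of 7 groups, grouped by the sample labels. The authors processed reads with OmicSoft ArrayStudio on the mm10 refGene model and deposited FPKM values, scaled to exon length and mapped fragments. The aligner, its version and the strand setting of the counting are not given in the sources used here. DESeq version 2, named in the submitters' processing notes, made the comparison columns of a second deposited file (log2 fold changes, p-values and adjusted p-values of siSbp2l against each Day3 control), which were not used. That file also gave gene coordinates and exon lengths.

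FPKM values were tested as deposited, on log2(FPKM + 1), with limma 3.58.1 in R 4.3.3 (trend and robust empirical Bayes, two-sided, Benjamini-Hochberg adjustment over all genes tested, called under 0.05). Genes needed 1 FPKM in at least 2 libraries fitted. Fold changes on this scale understate those of low genes. Day3 comparisons used the 12 Day3 libraries (11650 genes) and Day0 comparisons and the order of groups all 14 (11874 genes). The fits were tested on simulated data. Depths (6561097 to 31623187 fragments) were estimated from steps between low values, of which 88.7% to 92.5% came out within 0.1 of a whole fragment in genes of a single transcript. No 2 libraries were treated as duplicates.

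The 8 members, the lists and the naming rule (members, knockdown checks, up to 3 called genes of a list by size of change, up to 3 genes most like a member) were chosen with earlier results of these data known. Alternatives were pseudocounts of 0.1 and 5, other limits on low values, 2 scalings, single controls, a replicate block, fits of only the libraries compared and each library left out. Leaving out both non-treated libraries was added after seeing the data. Sequences came from GENCODE M21 and RefSeq, and reading frames were aligned with Biopython 1.88. Gpx4 has a transcribed pseudogene copy on the same chromosome, and Txnrd1 overlaps Eid3 on the same strand. Reads shared with these could not be separated. Some items of the marker lists and of the gene overlaps are not reported here.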

Additional observations from a re-analysis of the deposited data

Results flagged for a closer look

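The effects of the 2 targeting siRNAs, each measured against the same Day3 controls, differed by a direct test in 3 of the 5 tested members. Of all 11650 genes tested, 28.5% were called higher and 23.4% lower in siSbp2l than in siPdgfra. The count is therefore not read as particular to the members. The siSbp2l minus siPdgfra difference on the log2(FPKM + 1) scale was -1.33 for Gpx1 (adjusted p = 4.37e-04), -0.55 for Gpx4 (adjusted p = 0.026) and 1.24 for Txnrd3 (adjusted p = 1.30e-05). The call of Gpx4 was lost when any single library of either group was left out. For each of the 3, both siSbp2l libraries lay on the same side of both siPdgfra libraries. The share of all genes separated in this way was not counted. The summed OL markers (2155 to 2251 FPKM in siSbp2l, 2826 to 3055 FPKM in siPdgfra), astrocyte markers (101 to 108 and 37.7 to 38.1 FPKM) and neuron markers (200.4 to 201.5 and 236 to 240.3 FPKM) did not overlap between these groups either, and their part in these differences was not tested. Of the OL markers, Mbp, Cnp, Mog and Mobp were lower in siSbp2l, Mag overlapped between the groups, and Cldn11 had a higher mean in siSbp2l. Of the astrocyte markers, Gfap, Slc1a2 and Aldoc were higher in siSbp2l, while Aqp4, Aldh1l1 and Gja1 had higher means in siPdgfra. The neuron sum was mostly Tubb3 (means of 193.6 FPKM in siSbp2l and 232.6 FPKM in siPdgfra). Snap25 was also higher in siPdgfra, while Rbfox3, Syt1, Gad1 and Slc17a7 had higher means in siSbp2l.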

How the results depend on the processing

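Under all alternatives run, the members called against Day0 numbered 3 or 4. At a limit of 5 FPKM, Txnrd2 and Txnrd3 were no longer tested in the Day3 fits, and the members called numbered 1 in siSbp2l, 2 in siPdgfra and 0 for both NC siRNAs against non-treated and mock. The last count was 2 with median-ratio and with upper-quartile scaling. Against NC siRNA #1 alone, 2 members were called in siPdgfra. Gpx1 in siSbp2l changed sign without passing the test, to 0.023 against non-treated cells and 0.17 against NC siRNA #1. With each library left out, the lone library of a group is assumed to vary like the others. The counts ranged from 2 to 4 in siSbp2l, 2 to 5 in siPdgfra, 2 to 3 between the knockdowns and 1 to 4 for both NC siRNAs against the other controls. The differences ranged from -0.13 to 0.063 for Gpx1 in siSbp2l, and between the knockdowns from -0.13 to 0.083 for Txnrd1 and from -0.19 to 0.11 for Txnrd2. The number of all genes called also moved between settings, as given below for several comparisons. Nothing in these counts is read as particular to the members. The cause of these changes was not tested.

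Same-numbered replicates share only a number: deviations of same-numbered libraries correlated above 0.1 in 4 of 21 pairs of groups and below -0.1 in 7 (range -0.38 to 0.47). With a replicate block the members called were 4 (non-treated) and 4 (mock) against Day0, 3 in siSbp2l, 4 in siPdgfra, 3 between the knockdowns, 0 between the NC siRNAs and 1 for both NC siRNAs against the others, and no member's call changed.

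Over all genes, calls between the NC siRNAs went from 2444 to 4774 without the non-treated libraries, to 4779 in a fit of only the libraries compared, and to 1224 to 4778 with 1 library left out. For both NC siRNAs against the other controls they went from 3277 to 2083 to 6164, in siSbp2l from 6226 to as few as 3829 and in non-treated cells against Day0 from 7952 to 5256 with only the libraries compared. Groups of 2 and values near 1 FPKM limit what can be said of Txnrd2 and Txnrd3.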
